A study of Mus musculus with 6 samples.

Results

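The transcription factors followed here act in the growing hair follicle, and 9 of them were read in 6 samples of mouse back skin: Msx1, Msx2, Hoxc13, Foxn1, Dlx3, Gata3, Foxq1, Prdm1 and Ovol1. A probe was taken when the array files gave 1 of these 9 names as its gene, which gave 11 probes of 41115, and all 9 genes were among the 17778 genes tested. The imiquimod group had received 62.5 mg a day of a cream with 5% imiquimod, which activates Tlr7 and inflames mouse skin in a psoriasis-like way, on the shaved back for 7 days. The vehicle group had received the same amount of a cream without imiquimod for the same time. All mice were female, of the inbred strain C57BL/6J and 6 to 8 weeks old, and total RNA of whole back skin was read on single-colour (Cy3) Agilent arrays, 3 samples in each group. Nothing in the labels says that each sample came from its own mouse, so p-values reflect only the spread among these samples, part of which may be technical.

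The records disagreed on the treatment of an array. For 6 of 6 scanner files, the treatment word in the file name was the opposite of the title of its sample. The columns of the deposited value table, read by sample title, in 6 of 6 cases matched the scanner file whose name carried the treatment of that title. Arrays are therefore grouped by the word in the file name, and filing them the other way turns the sign of every difference given here. Slide 1 held imiquimod array 1 and vehicle arrays 1, 2 and 3, and slide 2 held imiquimod arrays 2 and 3. The scanner software marked vehicle arrays 2 and 3 for evaluation. The mean net signal of the negative control spots was 40.9 and 45.2 on these arrays and 31.7 to 37.6 on the others. Vehicle array 3 stood apart from the other vehicle arrays in hair genes, so results that rest on it are given with and without it. That choice came from the values of these genes, so adjusted p-values and folds without it are descriptive and not independent tests. The share of probes well above background was 61.2% to 67.4% by array. Precision is limited by having 3 arrays in a group. As a check of the skin label, Krt14, a keratin of basal keratinocytes in the epidermis, was well above background on every array, at a log2 level of 8.64 to 8.93 in imiquimod skin and 6.28 to 6.68 in vehicle skin.

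In a growing follicle, matrix cells around the dermal papilla divide and then turn into the concentric layers of the hair shaft and the inner root sheath. Bmp, Wnt and other signals switch on homeobox, forkhead and Gata factors in these cells, and the factors switch on the keratins of each layer. In mice, loss of Hoxc13 or Foxn1 leaves the coat brittle or missing, loss of Msx2 gives cyclic hair loss, and Gata3 is needed for the inner root sheath. These roles come from earlier work on mice and were not measured here.

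The bases just before the gene start were available from RefSeq (GRCm38.p6) for 5 of the 9 genes, and those of 4 are shown because their genes behave in different ways in the arrays described next. Msx1 and Msx2 are homeobox factors that varied together over the arrays, as Hoxc13 and Dlx3 also did with them. Foxn1 varied among the vehicle arrays without separating the groups, and Gata3 separated the groups with little spread. Each line gives 250 bases, 5′ to 3′ on the gene's own strand, which is the minus strand for all 4, with capitals for matches to the motifs named below.
Msx1, chr5:37824586-37824835: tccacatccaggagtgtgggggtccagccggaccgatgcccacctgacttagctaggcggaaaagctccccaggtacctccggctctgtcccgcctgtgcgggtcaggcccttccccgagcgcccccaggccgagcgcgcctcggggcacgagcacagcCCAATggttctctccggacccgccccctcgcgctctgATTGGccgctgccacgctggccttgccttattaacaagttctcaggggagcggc
Msx2, chr13:53472781-53473030: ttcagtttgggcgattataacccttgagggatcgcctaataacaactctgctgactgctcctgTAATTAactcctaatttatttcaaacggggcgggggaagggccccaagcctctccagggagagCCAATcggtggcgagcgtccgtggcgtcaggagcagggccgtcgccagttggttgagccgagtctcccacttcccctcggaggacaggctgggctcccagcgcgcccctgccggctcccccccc
Foxn1, chr11:78386609-78386858: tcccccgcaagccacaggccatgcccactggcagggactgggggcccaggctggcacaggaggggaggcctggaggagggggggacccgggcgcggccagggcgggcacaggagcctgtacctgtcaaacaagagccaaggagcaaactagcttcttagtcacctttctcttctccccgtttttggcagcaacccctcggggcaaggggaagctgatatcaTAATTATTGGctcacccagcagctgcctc
Gata3, chr2:9878601-9878850: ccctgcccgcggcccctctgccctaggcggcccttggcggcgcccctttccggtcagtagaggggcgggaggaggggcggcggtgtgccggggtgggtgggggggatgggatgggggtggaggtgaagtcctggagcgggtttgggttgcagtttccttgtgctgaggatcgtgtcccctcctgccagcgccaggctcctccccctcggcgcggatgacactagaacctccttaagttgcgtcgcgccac
Capitals mark TAATTA, a palindrome that many homeobox proteins bind, and CCAAT or its reverse complement ATTGG, the box bound by NF-Y. Both motifs were chosen after the sequences had been read, and both strands were searched. TAATTA stood in 2 of the 5 promoters, those of Msx2, 187 bases before the start, and Foxn1, 29 bases before it, and in 4.84% of all 32851 promoters in the table. CCAAT stood in the promoters of Msx1, Msx2, Foxn1 and Prdm1, which is 4 of 5, and in 33.8% of all promoters. In Foxn1 the ATTGG shares its first letter with the end of TAATTA, so the capitals there run together.

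Of the motifs searched without regard to these sequences, GTAAACA, a forkhead motif, stood in the Prdm1 promoter and in 3.17% of all promoters. All the other motifs stood in 0 of the 5 promoters. Among them TAATTG, a core bound by Msx and Dlx homeobox proteins, stood in 7.17% of all promoters, and AGATAA, known from Gata proteins, stood in 9.99% of them. The Lef1 and Tcf motif was searched as CTTTGA (13.8% of all promoters) and, with another last letter, as CTTTGT (16.5% of all promoters). TTTATG, a core bound by Hoxc13, stood in 10.8% of all promoters and CCGTTA, bound by Ovol1, in 2.18%. A match is a run of letters and not a measured binding site, and a missing match says only that the letters are not in these windows. The Gata3 promoter held none of the motifs and was 70% G or C, against a median of 52.4% over all promoters.

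Msx1 and Gata3 fell in imiquimod skin, and the other 7 factors did not pass the test. All 9 differences were negative, with a median log2 difference of -1.50 beside 0.023 over all genes tested. With all 6 arrays, 2 of 9 factors passed (23.6% of all genes passed), 0 of them higher (13.1% of all genes) and 2 lower (10.5% of all genes). In 5 of the 9, namely Msx1, Msx2, Hoxc13, Dlx3 and Gata3, every imiquimod array lay below every vehicle array, as in 20.7% of all genes, and in 0 of 9 above, as in 25.9%. The same 5 were lower by at least 1 on the log2 scale, as were 7.94% of all genes. Levels here and in what follows are log2 processed signals minus the 75th percentile of the array, so 0 is that percentile, and levels of different genes are not set against each other. Whole skin was measured, so fewer cells of a type and less RNA in each cell cannot be told apart.

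**Figure D1:**
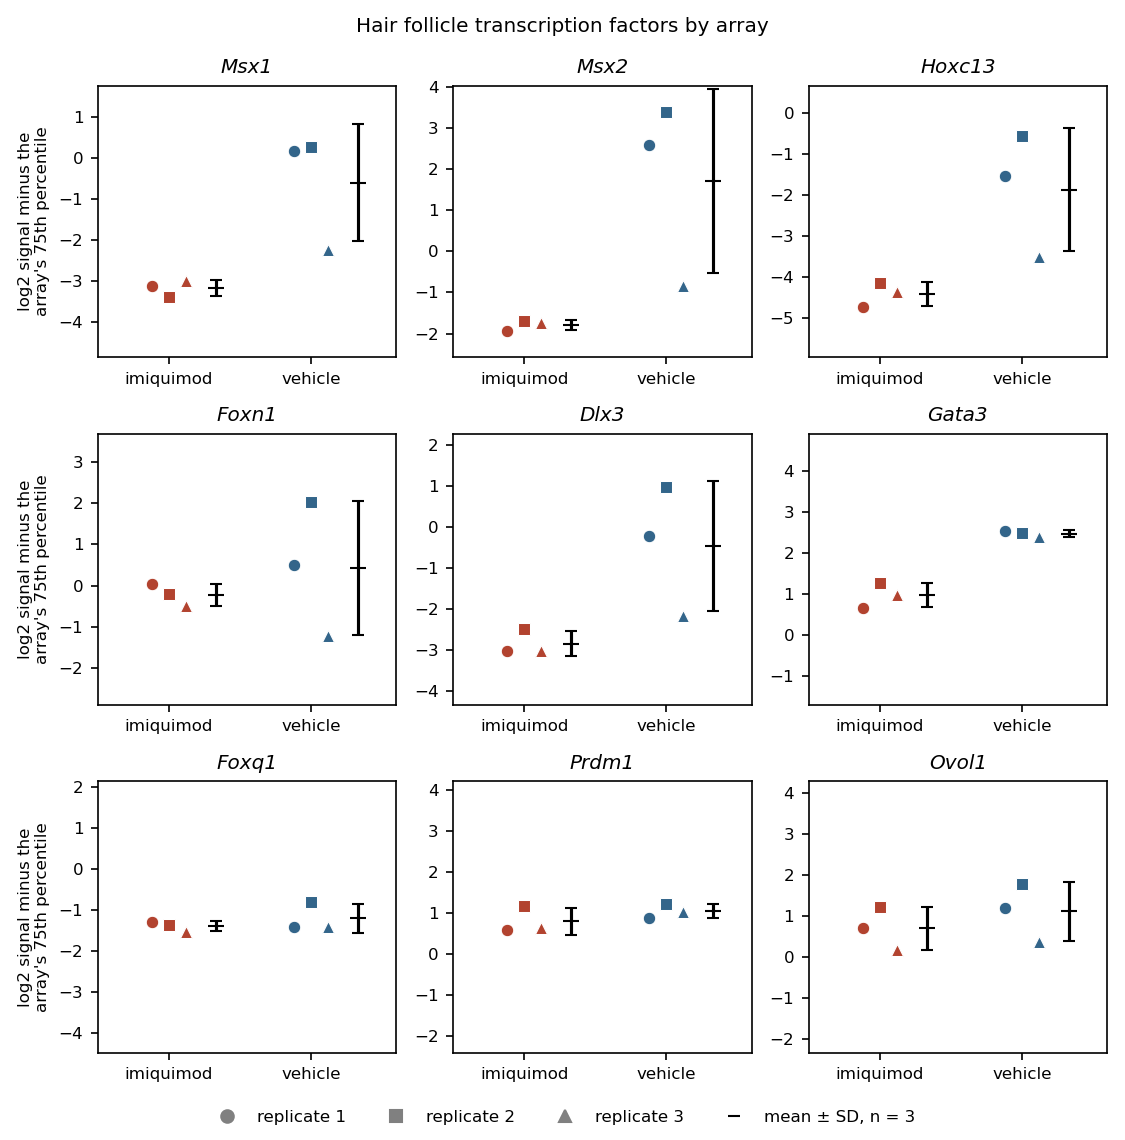
Level of each factor by array, as log2 processed signal minus the array's 75th percentile, with imiquimod arrays left of vehicle arrays in each panel; symbols are the replicates and bars the mean ± SD of 3 arrays. Every panel spans the same number of log2 units. Vehicle replicate 3 lies far below the other vehicle arrays for Msx1, Msx2, Hoxc13, Foxn1 and Dlx3, while the 3 vehicle arrays of Gata3 lie together above the imiquimod arrays.

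Msx1 and Msx2 are homeobox factors of the hair matrix that act downstream of Bmp signals. Msx1 lay at -3.11, -3.37 and -2.99 in imiquimod arrays 1, 2 and 3, and at 0.16, 0.28 and -2.25 in vehicle arrays 1, 2 and 3. The imiquimod arrays were all low and close together, and vehicle array 3 differed from their mean by 0.91 and from the mean of the other vehicle arrays by -2.47. The group means were -3.16 ± 0.19 in imiquimod skin and -0.60 ± 1.42 in vehicle skin (SD, n = 3), a difference of -2.56 (SE 0.69, limma adjusted p = 0.0446), or 5.88-fold lower. The call was lost without imiquimod array 1, 2 or 3 (adjusted p = 0.124, 0.127 and 0.112) and without vehicle array 1 or 2 (adjusted p = 0.134 and 0.0816), while the difference stayed between -2.64 and -2.12. It was also lost with quantile normalization (adjusted p = 0.0555), in the deposited value table (adjusted p = 0.0563) and when dim probes were all kept in the fit (adjusted p = 0.0720). Leaving vehicle array 3 out gave a difference of -3.38 (adjusted p = 0.00253). The other Msx1 probe was well above background on 0 of 3 imiquimod arrays and 1 of 3 vehicle arrays, and was not tested.

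Msx2 lay at -1.93, -1.69 and -1.73 in the imiquimod arrays, and at 2.58, 3.38 and -0.84 in the vehicle arrays. The groups did not overlap, but vehicle array 3 differed from the imiquimod mean by only 0.94 and from the mean of the other vehicle arrays by -3.82. The difference was -3.49 (SE 1.07, limma adjusted p = 0.0626) and did not pass. It was -4.77 without vehicle array 3 (SE 0.26, adjusted p = 0.00253), a signal 27.2-fold lower in imiquimod skin than in the remaining pair of vehicle samples. Leaving out the lowest vehicle array could only widen this difference.

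Hoxc13, a homeobox factor that drives hair keratin genes, lay at -4.73, -4.15 and -4.36 in the imiquimod arrays, against -1.54, -0.58 and -3.51 in the vehicle arrays. It was well above background on 2 of 3 imiquimod arrays and on all 3 vehicle arrays. Again the groups did not overlap and vehicle array 3 was the lowest vehicle array. The difference of -2.53 (SE 0.73, limma adjusted p = 0.0529) did not pass, and it was -3.35 (adjusted p = 0.00497) without vehicle array 3. Normexp background correction put it at -1.43 (adjusted p = 0.0814), the smallest size among the settings tried.

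Dlx3 is a homeobox factor of the matrix, the shaft and the inner root sheath. Its level was -3.02, -2.49 and -3.03 in the imiquimod arrays and -0.21, 0.96 and -2.17 in the vehicle arrays. The gap between the groups was narrow: vehicle array 3 lay 0.67 above the imiquimod mean. The difference of -2.37 (SE 0.77, limma adjusted p = 0.0733) did not pass, and without vehicle array 3 it was -3.22 (adjusted p = 0.00742).

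Foxn1, the forkhead factor mutated in nude mice, lay at 0.03, -0.21 and -0.50 in the imiquimod arrays, and at 0.50, 2.03 and -1.24 in the vehicle arrays. Here the groups overlapped, because vehicle array 3 differed from the imiquimod mean by -1.01 while the other vehicle arrays lay above all imiquimod arrays. The difference was -0.66 (SE 0.79, limma adjusted p = 0.579) with a 95% interval from -2.59 to 1.28, so neither a fall of 2 nor a rise of 1 on the log2 scale lay outside it. Without vehicle array 3 it was -1.49 (adjusted p = 0.0773), and without vehicle array 2 it turned to 0.15 (adjusted p = 0.853).

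Gata3, a zinc finger factor of the inner root sheath and the epidermis, lay at 0.66, 1.26 and 0.97 in the imiquimod arrays and at 2.53, 2.49 and 2.37 in the vehicle arrays. Vehicle array 3 lay with the other vehicle arrays: it differed from their mean by -0.14 and from the imiquimod mean by 1.41. The group means were 0.96 ± 0.30 in imiquimod skin and 2.46 ± 0.08 in vehicle skin (SD, n = 3). The difference was -1.50 (SE 0.17, limma adjusted p = 0.00433), or 2.82-fold lower, and it ranked 525 by p among the 17778 genes. The call held without each of the 6 arrays in turn, with adjusted p between 0.00822 and 0.0252. With slide as a block the difference was -1.80 (adjusted p = 0.0195). Within slide 1, with 1 imiquimod array against 3 vehicle arrays, the estimate is the same and the call was lost (adjusted p = 0.0734).

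Foxq1, Prdm1 and Ovol1 have roles in the hair medulla, in sebaceous and differentiating epidermal cells, and in differentiating epidermis and shaft. Foxq1 lay at -1.29, -1.36 and -1.53 in imiquimod skin and at -1.40, -0.80 and -1.40 in vehicle skin, with a difference of -0.20 (SE 0.20, limma adjusted p = 0.500). Prdm1 lay at 0.59, 1.17 and 0.62 in imiquimod skin and at 0.87, 1.21 and 1.03 in vehicle skin, with a difference of -0.24 (SE 0.20, adjusted p = 0.402). Ovol1 lay at 0.72, 1.22 and 0.17 in imiquimod skin and at 1.19, 1.80 and 0.37 in vehicle skin, with a difference of -0.41 (SE 0.43, adjusted p = 0.515). The groups overlapped for all 3 genes. Their 95% intervals ran from -0.68 to 0.28 for Foxq1, from -0.72 to 0.24 for Prdm1 and from -1.47 to 0.64 for Ovol1. A change of 1 on the log2 scale in either direction lay outside the first 2 intervals. For Ovol1 a fall of 1 lay inside the interval and a rise of 1 outside it. The other Ovol1 probe differed by -0.01 (SE 0.34).

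**Figure D2:**
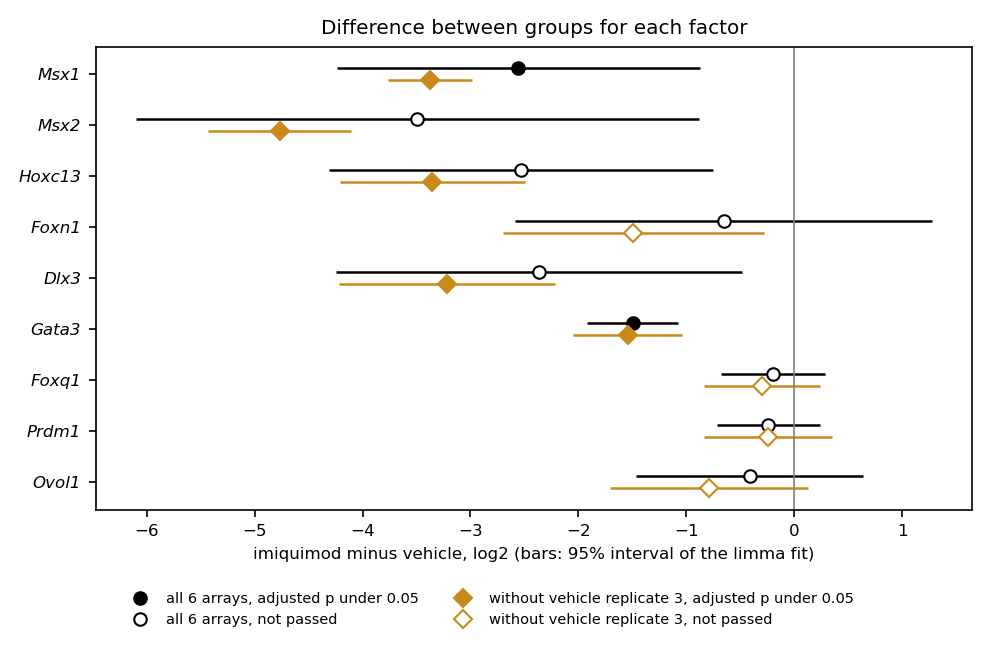
Imiquimod minus vehicle difference of each factor on the log2 scale with its 95% interval from limma, from all 6 arrays (black) and without vehicle replicate 3 (orange); filled symbols have an adjusted p under 0.05. Msx1 and Gata3 are filled in black; Msx1, Msx2, Hoxc13, Dlx3 and Gata3 are filled in orange, where the intervals of the first 4 are narrower. The orange values are descriptive, because that array was singled out by its values in hair genes.

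Leaving out vehicle array 3 thus changed the count more than any other single array: 5 of 9 factors were lower (11.1% of all genes were), namely Msx1, Msx2, Hoxc13, Dlx3 and Gata3. With any other single array left out, 1 factor was lower, and 745 to 2215 of all 17778 genes were. The same 5 were lower without both arrays marked for evaluation, vehicle arrays 2 and 3 (7.56% of all genes were), and with array quality weights (18.7%). Leaving out both marked arrays also leaves out vehicle array 3 and rests on 1 vehicle array. Quality weights can lessen the part of an array that stands apart, and the weight of vehicle array 3 is not given here. Neither result is therefore separate support for the 5 factors beside leaving out vehicle array 3. In settings that kept the grouping and all 6 arrays at equal weight, 1 to 3 factors were lower. With slide as a block 1 of 9 passed, Gata3 (2.91% of all genes were lower). With that block the differences were -2.51 for Msx1, -3.64 for Msx2, -2.85 for Hoxc13 and -2.54 for Dlx3, with adjusted p between 0.193 and 0.257. Slide 2 held imiquimod arrays only, so within slide 1 the estimates are the same.

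Vehicle array 3 was the lowest vehicle array for 8 of the 9 factors, all but Prdm1 (32.7% of all genes). For 7 of 9 it was the lowest and vehicle array 2 the highest (24.5% of all genes). For Msx1, Msx2, Hoxc13, Foxn1 and Dlx3 it lay at least 1 below both other vehicle arrays, which is 5 of 9 factors beside 3.14% of all genes. The median range over the 3 arrays of a group was 0.54 in imiquimod skin and 2.52 in vehicle skin for the 9 factors. Over all genes the medians were 0.28 in imiquimod skin and 0.45 in vehicle skin. The vehicle range was the larger for 7 of 9 factors, beside 69.6% of all genes; for Gata3 and Prdm1 the imiquimod range was the larger.

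Other transcription factors of the follicle were counted from a list of 37, of which 34 were tested. In imiquimod skin 3 were higher, 11 lower and 20 did not pass, with a median difference of -0.55. Those that were higher were Pitx1, a homeobox factor best known from the hindlimb, by 4.68 (SE 0.24, limma adjusted p = 0.00116), Runx1 by 0.92 (adjusted p = 0.0140) and Runx3 by 0.57 (adjusted p = 0.0331). Pitx1 lay at 2.89, 3.21 and 2.70 in the imiquimod arrays and at -1.95, -2.01 and -1.28 in the vehicle arrays, so its groups lay far apart and vehicle array 3 lay near the others. Gata6, a zinc finger factor of the upper follicle, lay at -3.17, -2.32 and -2.47 in the imiquimod arrays and at 0.39, 0.18 and 0.76 in the vehicle arrays, a difference of -3.09 (SE 0.27, adjusted p = 0.00230). Like Gata3 it separated the groups in all 6 arrays, though its vehicle arrays spanned 0.58 and those of Gata3 0.16.

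Lef1, the factor that carries Wnt signals to hair genes in the matrix, fell by 3.18 (SE 0.73, limma adjusted p = 0.0287). It lay at -2.08, -1.60 and -1.66 in the imiquimod arrays and at 1.75, 2.71 and -0.24 in the vehicle arrays. Vehicle array 3 lay again between the imiquimod arrays and the other vehicle arrays. Lhx2 and Sox9, factors of follicle stem cells and the outer root sheath, fell by 3.01 (adjusted p = 0.0265) and 0.95 (adjusted p = 0.0195), and Vdr, the vitamin D receptor, fell by 1.15 (adjusted p = 0.0389). Tcf7l1 and Tcf7l2, factors of the same family as Lef1, fell by 0.74 and 0.75 (adjusted p = 0.0140 and 0.0157), and Hoxc8 by 0.74 (adjusted p = 0.0253).

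The remaining 3 lower factors, Foxe1, Dlx1 and Dlx4, were well above background on 0 of 3 imiquimod arrays and on all 3 vehicle arrays. Against the lowest signal that was well above background on each imiquimod array, they were at least 9.40-fold, 4.34-fold and 5.67-fold lower in the mean (limma adjusted p = 0.0180, 0.0235 and 0.0474). Dlx2, of the same homeobox family as Dlx3, differed by -3.35 and did not pass (adjusted p = 0.0502). It passed without vehicle array 3 (-4.34, adjusted p = 0.00884). Sox2 and Hoxc12 were well above background on 0 arrays. Without vehicle array 3, 4 of the 34 factors were higher and 16 lower. Without vehicle array 2, 3 were higher and 8 lower. With any 1 of the other 4 arrays left out, 1 to 3 were lower and 1 or 2 higher, and with slide as a block 1, Pitx1, was higher and 3, Gata6, Lhx2 and Hoxc8, were lower. Pitx1 and Gata6 passed with each of the 6 arrays left out in turn. Runx3 passed in none of these cases, and Lef1 passed only without vehicle array 2 or 3.

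**Figure D3:**
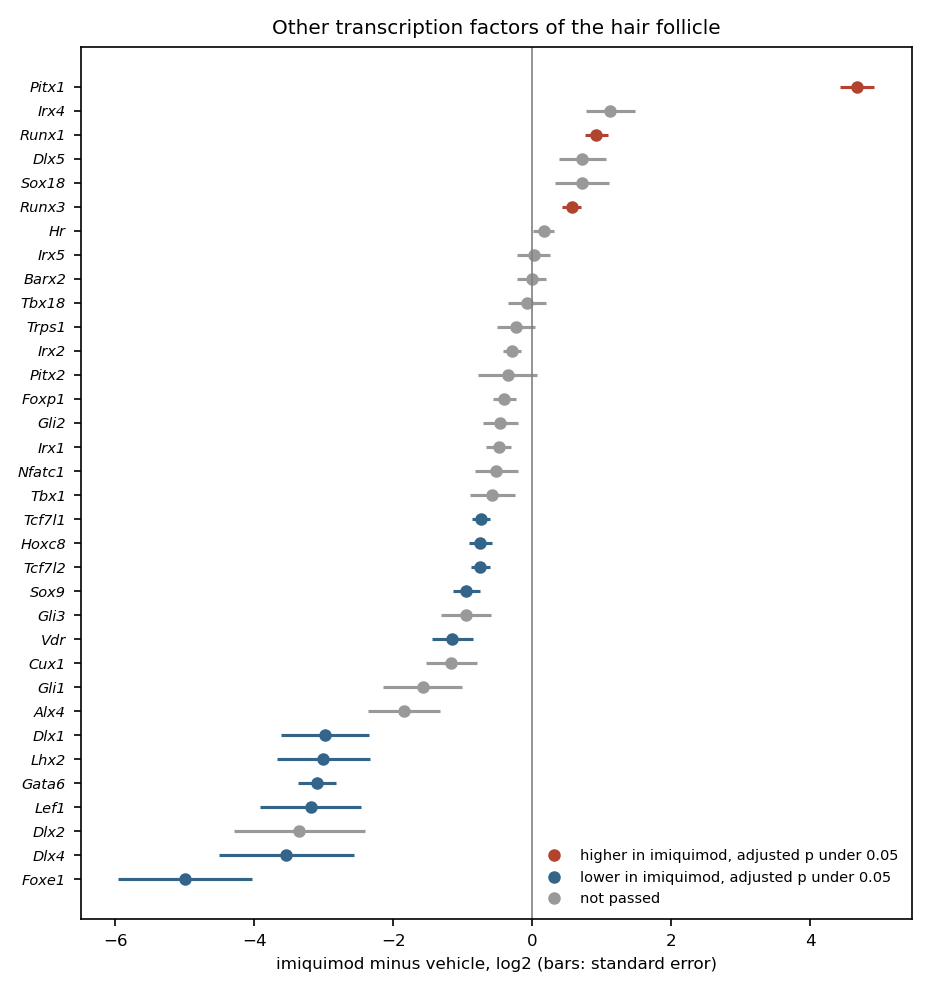
Imiquimod minus vehicle difference of the 34 other follicle factors tested, on the log2 scale, with bars for the standard error; red is higher and blue lower in imiquimod skin at a limma adjusted p under 0.05, and grey did not pass. Pitx1 stands at 4.68, and the lower end holds Foxe1, Dlx4, Dlx2 and Lef1. The points of Foxe1, Dlx1 and Dlx4 are fitted values of genes at background in imiquimod skin, for which the text gives bounds.

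Transcription factors of the epidermis at large were counted from a list of 25. Of 24 tested, 5 were higher in imiquimod skin, 1 lower and 18 did not pass, with a median difference of -0.0049. Ehf and Elf3, Ets factors of epithelia, were higher by 2.32 (SE 0.33, limma adjusted p = 0.00747) and 2.36 (SE 0.63, adjusted p = 0.0438). Tfap2a was higher by 0.89 and Klf5 by 0.78 (adjusted p = 0.0262 and 0.0343). Tfap2b was lower, with a difference of -1.41 (adjusted p = 0.00467). Trp63, the master factor of stratified epithelium, differed by -0.14 (SE 0.12, adjusted p = 0.404). Without vehicle array 3, 4 were higher and 1 lower, and with slide as a block 0 were higher and 1 lower. Without vehicle array 2 the counts were 4 higher and 4 lower, and with any 1 of the remaining 4 arrays left out they were 2 and 1.

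Among signals that act upstream of these factors, 9 of 19 tested genes were lower in imiquimod skin, 0 higher and 10 did not pass, with a median difference of -0.74. Wnt3, a Wnt ligand, lay at -0.89, -0.33 and -0.33 in the imiquimod arrays and at 1.33, 1.43 and 1.71 in the vehicle arrays, a difference of -2.01 (SE 0.20, limma adjusted p = 0.00312). Bmp4, a ligand upstream of Msx genes, lay at -3.09, -2.13 and -2.13 in the imiquimod arrays and at 0.18, -0.06 and 0.05 in the vehicle arrays, a difference of -2.51 (SE 0.28, adjusted p = 0.00408). For both ligands vehicle array 3 lay among the other vehicle arrays or above them, unlike its place for Msx1 and Msx2. Bmp2 differed by -1.87 (SE 0.22, adjusted p = 0.00468). The receptor genes Bmpr1a and Notch1 differed by -0.42 (adjusted p = 0.0552) and -0.74 (adjusted p = 0.0336), and Ctnnb1, which encodes beta-catenin, by -0.09 (adjusted p = 0.797). Without vehicle array 3, 11 were lower, without vehicle array 2, 7, and with any 1 of the other 4 arrays left out 3 to 5. With slide as a block 4 were lower.

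Keratins of the hair shaft are controlled by Hoxc13 and Foxn1 in mice. Of 12 hair shaft keratins tested, 9 were lower in imiquimod skin, 0 higher and 3 did not pass, with a median difference of -6.70. Krt33a lay at -7.01, -5.49 and -5.21 in the imiquimod arrays and at 5.97, 7.76 and 1.51 in the vehicle arrays, a difference of -10.98 (SE 1.59, limma adjusted p = 0.00808). It was well above background on 1 of 3 imiquimod arrays. Krt34 was well above background on 0 of 3 imiquimod arrays and at least 549-fold lower there in the mean (adjusted p = 0.00844). Krt35, a keratin of the matrix and early cortex, differed by -8.78 (adjusted p = 0.00901). Krt33b and Krt84 were exceptions, with differences of 2.39 and 1.21 that did not pass (adjusted p = 0.226 and 0.565). The summed level of the 12 keratins, taken over linear signals in units of each array's 75th percentile, was 14.2, 17.8 and 11.9 in the imiquimod arrays and 288, 876 and 35.8 in the vehicle arrays. Most of the imiquimod sums came from Krt33b (log2 levels of 2.35 to 3.38 there) and Krt75 (1.51 to 3.21), so they say little of the other keratins. Vehicle array 3 was the lowest vehicle array for 12 of 12.

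Of 8 inner root sheath genes tested, 7 were lower in imiquimod skin and 1 higher, with a median difference of -8.07. Krt71 lay at -5.08, -4.51 and -3.24 in the imiquimod arrays and at 8.32, 8.80 and 6.06 in the vehicle arrays, a difference of -12.01 (SE 0.82, limma adjusted p = 0.00162). Krt25 was well above background on 0 of 3 imiquimod arrays and at least 2363-fold lower there in the mean (adjusted p = 0.00203), and Krt27 differed by -8.07 (adjusted p = 0.00656). Tgm3, a transglutaminase that the epidermis also makes, was the gene that was higher, by 2.30 (adjusted p = 0.0162). That call was lost without imiquimod array 1, 2 or 3 or vehicle array 1, and with slide as a block, where 0 inner root sheath genes were higher. The summed level was 7.20, 5.96 and 7.83 in the imiquimod arrays and 718, 1225 and 122 in the vehicle arrays, with vehicle array 3 the lowest vehicle array for 7 of 8 genes. Without vehicle array 3, 10 shaft keratins and 7 inner root sheath genes were lower. With any other single array left out these counts were 4 to 8 and 5 or 6 (without vehicle array 2, 2 shaft keratins were higher), and with slide as a block they were 1 and 3.

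**Figure D4:**
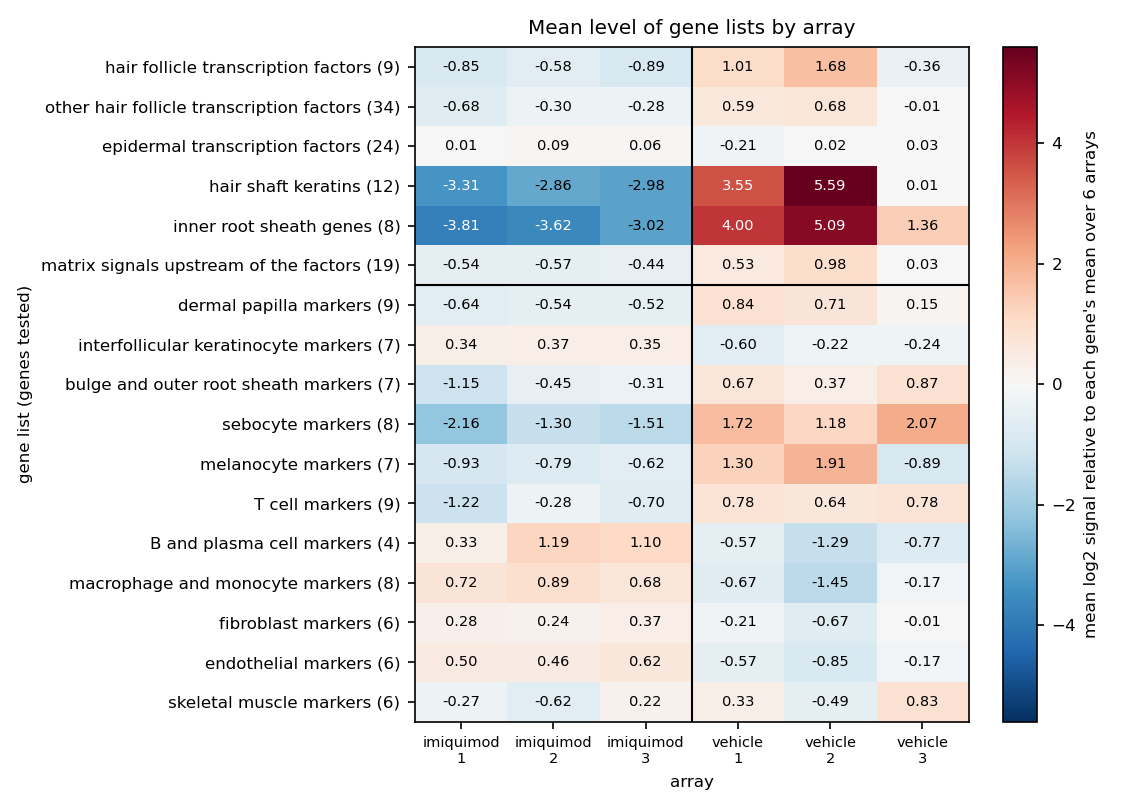
Mean level of each gene list in each array, as log2 signal relative to each gene's own mean over the 6 arrays, with imiquimod arrays left of vehicle arrays and the number of genes tested in brackets. The 9 factors stand at -0.85, -0.58 and -0.89 in the imiquimod arrays and at 1.01, 1.68 and -0.36 in the vehicle arrays. Hair shaft keratins and melanocyte markers share the low value of vehicle array 3, and sebocyte markers do not.

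Markers of other cells of the skin were counted beside the factors. Of 7 melanocyte markers tested, 2 were lower in imiquimod skin, Mitf (-1.42, limma adjusted p = 0.00839) and Sox10 (-0.81, adjusted p = 0.0182). Their summed level was 14.0 to 17.8 in imiquimod skin and 14.3 to 115 in vehicle skin, and vehicle array 3 was the lowest vehicle array for 7 of 7. Of 9 dermal papilla markers tested, 6 were lower and 1, Crabp1, higher (2.41, adjusted p = 0.00280). Their summed level was 7.15 to 7.83 in imiquimod skin and 6.98 to 9.04 in vehicle skin. Crabp1 and Enpp2, which was among the lower markers, made up most of it on each array, so it says little of the other markers. Of 8 sebocyte markers tested, 6 were lower, among them Soat1 (-2.13, adjusted p = 0.00222), with a summed level of 84.4 to 120 in imiquimod skin and 193 to 289 in vehicle skin. Vehicle array 3 was the lowest vehicle array for 0 of these 8. Their part in the results for the 9 factors was not tested.

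Of 7 bulge and outer root sheath markers, 4 were lower and 1, Postn, higher. Krt15, a keratin of the bulge, differed by -2.12 (SE 0.32, limma adjusted p = 0.00937), and the summed level was 79.3 to 141 in imiquimod skin and 241 to 351 in vehicle skin. Of 7 interfollicular keratinocyte markers, 3 were higher and 0 lower, with Krt14 higher by 2.25 (adjusted p = 0.00155) and a summed level of 1893 to 2082 in imiquimod skin and 988 to 1302 in vehicle skin. Gata3 is also made by T cells. Of 9 T cell markers tested, 2 were lower, Trat1 and Lck (-1.09, adjusted p = 0.0218), and 0 higher. Trat1 was well above background on 0 of 3 imiquimod arrays and at least 6.04-fold lower there in the mean (adjusted p = 0.00263). The summed level of the T cell markers was 0.88 to 2.05 in imiquimod skin and 2.67 to 3.70 in vehicle skin. Cd4, which did not pass (adjusted p = 0.108), was the largest part of the sum on vehicle array 2. It lay at 1.00 there and at -2.41 and -4.72 on vehicle arrays 1 and 3, so that sum says little of the other markers. For 4 of the 9 markers every imiquimod array lay below every vehicle array. The part of T cells in the Gata3 difference was not tested. Without imiquimod array 1 or 3 or vehicle array 1, 1 T cell marker was lower, and without vehicle array 2, 2 were; without imiquimod array 2 or vehicle array 3, 3 were. Prdm1 is also made by plasma cells. Of 4 B and plasma cell markers tested, 3 were higher, with Cd79b higher by 4.21 (adjusted p = 0.00275), and a summed level of 1.47 to 3.20 in imiquimod skin and 0.15 to 0.25 in vehicle skin. Without imiquimod array 1, 2 or 3 or vehicle array 3, 1 of these markers was higher, and without vehicle array 1 or 2, 2 were. Ms4a1 and Pax5 were well above background on 0 arrays.

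Of 8 macrophage and monocyte markers, 5 were higher, with Cd14 higher by 2.39 (limma adjusted p = 0.00324) and a summed level of 304 to 364 in imiquimod skin and 85.9 to 185 in vehicle skin. Of 6 fibroblast markers 4 were higher, with Col1a1 higher by 0.89 (adjusted p = 0.00361) and a summed level of 997 to 1123 in imiquimod skin and 598 to 854 in vehicle skin. Of 6 endothelial markers 4 were higher, with Emcn higher by 1.46 (adjusted p = 0.00515) and a summed level of 18.6 to 21.5 in imiquimod skin and 6.94 to 11.2 in vehicle skin. Of 6 skeletal muscle markers 0 passed, with a summed level of 296 to 508 in imiquimod skin and 312 to 747 in vehicle skin. With slide as a block, 1 interfollicular, 3 bulge, 6 sebocyte, 0 melanocyte, 1 T cell, 1 B or plasma cell, 1 macrophage, 1 fibroblast and 0 endothelial markers passed in these directions, and 1 dermal papilla marker was higher and 0 lower. Without imiquimod array 1, 2 or 3 or vehicle array 1, the counts were 2 or 3 lower for dermal papilla, 1 or 2 lower for bulge and 1 lower for melanocyte markers. They were 2 higher for macrophage and for fibroblast markers and 2 or 3 higher for endothelial markers. All 7 melanocyte markers were lower without vehicle array 3. Of the bulge markers, 0 were higher without imiquimod array 2 or 3 or vehicle array 1.

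The genes whose levels ran most like those of a factor over the 6 arrays were read from Pearson correlations, as a description of arrays that fall into 2 groups. Hoxc13 ran most like Nlgn2 (r = 0.9998) and Krt82, a keratin of the hair cuticle (r = 0.9994). Krt82 lay at -5.92, -4.73 and -4.85 in the imiquimod arrays and at 0.85, 2.74 and -3.38 in the vehicle arrays, the same order of vehicle arrays as for Hoxc13. Msx1 ran most like Tiam2 (r = 0.996) and Mnd1 (r = 0.996), Msx2 like Sardh (r = 0.998) and Slc39a10 (r = 0.998), and Dlx3 like 2700097O09Rik (r = 0.998) and Dlg3 (r = 0.996). Gata3 ran most like Gzf1 (r = 0.997) and Hmbox1 (r = 0.997), whose vehicle arrays spanned 0.05 and 0.01 on the log2 scale. Foxn1 ran most like Zik1 (r = 0.993), Foxq1 like Celf5 (r = 0.994), Prdm1 like Ccnt1 (r = 0.991) and Ovol1 like Hnrnph1 (r = 0.983).

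Probe positions are those of the array files, in mm9. The Msx1 probe spans chromosome 5 from 38212305 to 38212364 and the Msx2 probe chromosome 13 from 53563333 to 53563392, both on the minus strand. The Hoxc13 probe spans chromosome 15 from 102758794 to 102758853 and the Dlx3 probe chromosome 11 from 94985761 to 94985820, both on the plus strand. Those of Foxn1 (chromosome 11, 78171960 to 78172019), Gata3 (chromosome 2, 9778983 to 9779042) and Prdm1 (chromosome 10, 44157291 to 44157350) are on the minus strand. The Foxq1 probe spans chromosome 13 from 31651865 to 31651924 on the plus strand and the Ovol1 probe chromosome 19 from 5549209 to 5549268 on the minus strand. Exon and UTR annotation of that build was not used here.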

How the data were processed

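Each of the 6 samples had 1 single-colour array, and the authors deposited 1 scanner file for each and 1 table of values for the series. The deposited scanner values used are spot intensities on a linear scale, background-subtracted and detrended per the file headers by Agilent Feature Extraction 10.7.3.1, where the submitters' processing notes name version 9.1. The values in the deposited table are log2, with a median of 7.05 in each column and the normalization between arrays not given in the sources used here. It matched the grouping by file name with Spearman correlations of at least 0.9999997 over 24253 probes, against 0.943 to 0.953 for the array filed under the sample. The direction of the groups thus rests on the file names and this table.

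Control spots and 322 spots with outlier marks were left out, the spots of a probe were averaged, and log2 intensity minus the array's 75th percentile was used. Probes well above background on at least 3 of 6 arrays (27415) were tested, and the tested probe of highest mean stood for a gene. Probes were named through RefSeq accessions (27644), else by the symbol or synonym in the file. The comparison used lmFit and eBayes of limma 3.58.1 under R 4.3.3 (two-sided, Benjamini-Hochberg over all genes, threshold 0.05). For a gene not well above background on any array of a group, the fold is a bound, taken against the lowest signal well above background on each array of that group. The steps were tested on simulated data of 17778 genes in 3 against 3 arrays. Of 50 genes changed by a log2 value of 2, 82% were recovered, and of 50 changed by 1, 46%. The changed genes were drawn at random, and each had the same spread in both groups. These rates are thus not rates for factors of unequal spread, such as Msx2 (SD 2.24 in vehicle and 0.13 in imiquimod skin).

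The 9 factors and the other 16 gene lists were chosen with earlier results of these data known. In each of the 5 other lists of factors, keratins and signals the 3 genes of smallest p were to be named, in each of the 11 cell type lists the 1 of smallest p, and every gene of a direction with 5 or fewer. For likeness, the rule took the 2 genes of highest correlation with each factor. Other genes named were chosen after their values were seen. Samples of the same number were not paired: their deviations from the means of their groups had correlations over genes of -0.0872, 0.0676 and 0.0854 for numbers 1, 2 and 3. Alternatives varied the normalization, background correction, filter, choice of probe, source of values, slide, replicate block, variance model, grouping and each array, and leaving out both arrays marked for evaluation was chosen after seeing the data.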

Additional observations from a re-analysis of the deposited data

How the results depend on the processing

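The directions of Msx1, Msx2, Hoxc13, Dlx3, Gata3, Prdm1 and Ovol1 were the same under all alternatives that kept the grouping of arrays. Precision is limited by the number of arrays and, for dim genes such as Hoxc13, by signal near background; Hoxc13 was not tested with the filter on all 6 arrays. With the scanner files grouped as filed, the differences were 2.56 for Msx1, 3.49 for Msx2, 2.53 for Hoxc13, 0.66 for Foxn1, 2.37 for Dlx3, 1.50 for Gata3, 0.20 for Foxq1, 0.24 for Prdm1 and 0.41 for Ovol1, so 2 of the 9 factors were higher and 0 lower, and of the other follicle factors 11 were higher and 3 lower. This is the same fit with the sign turned. Foxn1 and Foxq1 also turned without vehicle replicate 2: with 1 array left out their differences were -1.49 to 0.15 and -0.30 to 0.0045. Foxq1 turned without both arrays marked for evaluation too (0.0033).

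The 9 factors had 2 lower genes as reported. The count was 1 with quantile normalization (1793 of 17778 genes were lower) and from the deposited value table (1806 of 17778). It was also 1 with no filter on dim probes (1310 of 27310 genes) and with slide as a block (518 of 17778). It was 5 with array quality weights, and 1 to 5 with 1 array left out. Over all genes, 2330 were higher and 1866 lower as reported, 541 and 518 with slide as a block, 7 and 1 within slide 1, and 4095 and 3331 with array quality weights. With 1 array left out, 944 to 2514 genes were higher and 745 to 2215 lower. Of the other follicle factors, 1 was higher and 3 lower with slide as a block, 0 and 0 within slide 1, and 5 and 18 with array quality weights. With 1 array left out, 1 to 4 were higher and 1 to 16 lower. Within slide 1 the single imiquimod array is assumed to vary like the vehicle arrays, and fewer arrays give larger adjusted p-values at the same spread. Causes of the other shifts were not tested.

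With the replicate number as a block, 1164 genes were higher and 1043 lower, 1 of the 9 factors (Gata3, adjusted p = 0.0244) and 3 of the other follicle factors were lower, and Msx1 did not pass (adjusted p = 0.0785).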
